A study of Mus musculus with 4 samples.

Results

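The 6 genes that mark the most primitive stem spermatogonia, Pax7, Eomes, T, Pdx1, Shisa6 and Tspan8, were read in THY1+ spermatogonia of mice with impaired retinoic acid signalling and of controls. The genes were chosen by symbol, and each of the 6 matched exactly 1 of the 43998 entries of the deposited table. The study sequenced RNA of THY1+ testis cells from C57BL/6 mice at postnatal day 4, in 2 libraries of control animals and 2 of animals whose germ cells carried impaired retinoid signalling. Neither the modified gene nor the Cre or other driver is named in the labels, nor do they say whether each library came from 1 animal or several. Cells were enriched on magnetic beads against CD90.2, the mouse THY1 surface protein, so other THY1-bearing or bead-retained testis cells may be present. The table gives 1 combined value per gene for each genotype, in RPKM, which is a read count normalised for transcript length and library depth. With 1 value per genotype there is no replicate error, so differences are set beside counting error alone and carry no SD or p-value.

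Spermatogonial stem cells maintain sperm production, and in the mouse they lie within a small set of undifferentiated spermatogonia that carry the GDNF co-receptor GFRA1. Retinoic acid drives their descendants from the undifferentiated state into differentiation. Within the GFRA1-positive set, rarer cells have been marked by transcription factors better known from embryonic patterning and organ formation (PAX7, EOMES, T and PDX1) and by the membrane proteins SHISA6 and TSPAN8. In bulk RNA, fewer cells of a kind and less RNA per cell cannot be told apart.

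Pax7 and Eomes had lower values in the mutant, while T, Shisa6 and Tspan8 differed by less than counting error between the genotypes. Pax7 was 3.26-fold lower, with 2.39 RPKM for control and 0.735 RPKM for mutant. Eomes was 2.13-fold lower, with 1.50 and 0.705 RPKM. T, Shisa6 and Tspan8 had mutant values of 92.1%, 89.1% and 113% of control. Pdx1 was at the edge of detection in both genotypes. The low values of the table step in whole reads, which placed the depth near 56.0 M reads for the control values and 57.3 M for the mutant values if no further scaling entered them. These depths were used to turn RPKM into estimated reads, with 95% intervals that cover counting error only and not differences between animals or libraries. Where a gene has several annotated transcripts, the shortest of at least 1000 nt was used. Among transcripts of that length it gives the fewest reads and the widest interval. T, Shisa6 and Tspan8 also have transcripts under 1000 nt, which would give fewer reads and wider intervals.

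**Figure D1:**
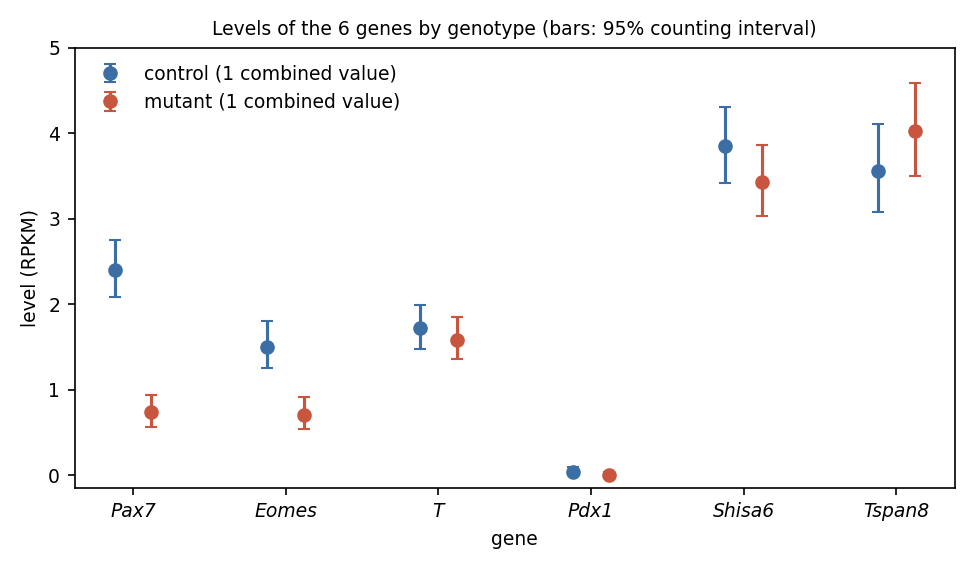
Level of each gene in RPKM (vertical axis) for the combined control value (blue) and the combined mutant value (red), with bars for the 95% counting interval. The intervals are apart for Pax7 (2.08 to 2.75 against 0.568 to 0.941) and Eomes (1.25 to 1.80 against 0.535 to 0.911), and overlap for the other 4 genes.

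Pax7 encodes a paired box transcription factor, known for muscle satellite cells and for a rare subset of single spermatogonia. The gene lies on chromosome 4 from 139737062 to 139833528 in GRCm38, on the minus strand, and its transcripts Pax7-201 and Pax7-202 have 9 exons each. Its 2.39 RPKM in control (counting interval 2.08 to 2.75) rested on about 205 reads for the 1725-nt transcript, or 758 for the 5854-nt transcript. Its 0.735 RPKM in mutant (0.568 to 0.941) rested on about 64 or 238 reads. The mutant value was thus below the control value by more than the counting error of both, and the 3.26-fold difference had a counting interval of 2.45 to 4.39. Among 4308 genes with a mean of 1 to 4 RPKM and values above 0 in both genotypes, 0.859% had a lower ratio of mutant to control than Pax7. That band was chosen after the values were seen, to set the genes beside others of like level. Genes of this level at 0 in mutant were left out of it and would have counted as lower.

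Reads of Pax7 could be mistaken for those of its closest paralogue Pax3 where their sequences agree or nearly agree. Only exact matches were searched for, here and for the other genes, so stretches that differ by a few bases were not covered. The longest run shared by the coding sequence of Pax7 and that of any other Pax gene was 26 nt, with Pax3, and it is shown because it bears on the specificity of the Pax7 value. The stretch below is coding positions 49 to 134 of Pax7-201 in GENCODE M21, spliced across exons 1 and 2 between 139830325 and 139832863 on chromosome 4, with the shared run in capitals.
Pax7: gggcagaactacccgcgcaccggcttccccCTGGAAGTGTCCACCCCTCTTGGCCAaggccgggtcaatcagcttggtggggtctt
None of the 5805 windows of 50 nt along Pax7-201 occurred in a transcript of another gene. Pax3 itself was close to absent, with 0.0123 and 0.0181 RPKM.

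Eomes and T are T-box transcription factors of early mesoderm formation, and EOMES also marks natural killer and cytotoxic T cells. Eomes lies on chromosome 9 from 118478212 to 118486132, and T, also called Brachyury, on chromosome 17 from 8434423 to 8442496, both on the plus strand of GRCm38. The control level of Eomes, 1.50 RPKM (counting interval 1.25 to 1.80), stood for about 122 reads in the 1647-nt transcript, or 283 in the 3560-nt transcript. The mutant level, 0.705 RPKM (0.535 to 0.911), stood for about 58 or 135 reads. The difference of 2.13-fold had a counting interval of 1.55 to 2.96, so a value under 2-fold lay within counting error. In the same band of level, 4.92% of genes had a lower ratio than Eomes.

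T, the second T-box gene, was at 1.72 RPKM in control (counting interval 1.48 to 1.99, about 178 reads) and at 1.58 RPKM in mutant (1.36 to 1.85, about 167 reads). The ratio of mutant to control was 0.921, with a counting interval of 0.741 to 1.14. A decrease to the level seen for Eomes, a ratio of 0.470, lay outside that interval. The counting intervals of the ratio of Eomes, 0.337 to 0.647, and of T did not overlap. Differences between libraries were not part of either interval. The reads of T were estimated on its 2046-nt transcript. Its transcripts of 681 and 761 nt would give fewer reads and a wider interval, so the separation from Eomes depends on that choice.

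The coding sequence of Eomes was set beside those of the rest of the T-box family, because related genes can exchange reads. Eomes shared at most 26 nt in a row with another T-box gene, Tbx1. The stretch below is coding positions 1318 to 1403 of Eomes-201, within exons 4 to 6 (chromosome 9, 118482142 to 118484291), with the shared run in capitals.
Eomes: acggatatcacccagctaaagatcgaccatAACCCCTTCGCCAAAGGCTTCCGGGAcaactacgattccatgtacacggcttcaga
No 50-nt window of T-201 occurred in another gene. For Eomes-201, 80 of 3511 windows (2.28%) also occurred in transcripts of 118 other genes, and none of these windows lay in its coding sequence or came from another T-box gene. An antisense gene, Gm33460, shares 118 nt with Eomes exons, 2.84% of them, and reads of the 2 cannot be told apart if the counting ignored strand; how strand was treated is not given in the labels.

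The sequences before the starts of Eomes and T are shown because these related genes differed in ratio. Both are the 250 bases before the RefSeq start in GRCm38.p6, on the plus strand, at chr9:118477939-118478188 for Eomes and chr17:8434173-8434422 for T, and no GENCODE M21 transcript of the gene overlaps them. Capitals mark matches, on either strand, to 5 short motifs: TATANAA, a core promoter element near many start sites, CCAAT, bound by NF-Y, GGGCGG, bound by Sp1, AGGTCA, the half-site of nuclear receptors, and AGGTGTGA, the half-site of T-box factors.
Eomes: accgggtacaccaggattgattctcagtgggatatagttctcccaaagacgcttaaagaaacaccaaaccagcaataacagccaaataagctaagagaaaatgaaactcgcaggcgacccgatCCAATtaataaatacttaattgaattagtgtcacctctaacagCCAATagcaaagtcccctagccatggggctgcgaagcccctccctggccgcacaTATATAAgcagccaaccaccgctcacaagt
T gene, Brachyury: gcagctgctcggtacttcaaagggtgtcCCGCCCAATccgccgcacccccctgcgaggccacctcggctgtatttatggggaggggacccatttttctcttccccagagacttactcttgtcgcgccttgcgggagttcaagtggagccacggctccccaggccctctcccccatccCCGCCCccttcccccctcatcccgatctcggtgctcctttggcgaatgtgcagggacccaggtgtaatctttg
Eomes held a match to TATANAA that began 30 bases before the start and matches to CCAAT at 84 and 127 bases. T held matches to GGGCGG, on the minus strand, at 73 and 222 bases, and one to CCAAT at 218 bases that overlaps the latter. Of 32851 promoters in the RefSeq table, 10.4% held TATANAA in a window of this length, 33.8% held CCAAT and 32.7% held GGGCGG. The half-site AGGTCA, found in 14.0% of promoters, and AGGTGTGA, found in 1.12%, did not occur in either window. The DR5 retinoic acid response element, a spaced direct repeat of AGGTCA, occurred in 3 of the 32851 and not in these. GC content was 46.4% for Eomes and 62.8% for T, against a median of 52.4% over the table.

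Pdx1, a homeobox factor of pancreas development, was close to absent. Its single annotated transcript of 2158 nt (chromosome 5, 147269959 to 147275848) had 0.0364 RPKM in control, which corresponds to 4 reads with a counting interval of 1.09 to 10.2. It was listed at 0 in mutant, where the counting interval reaches 3.69 reads, or 0.0330 RPKM. A difference was not detectable at this depth, and no fold is given. None of the 6 genes of the ParaHox family, to which it belongs, reached 1 RPKM, and the highest, Cdx1, was at 0.195 and 0.0917 RPKM. The span listed for Pdx1 reaches from 147228596 and takes in a separate entry, 2210019I11Rik, at 0.0715 and 0.0529 RPKM.

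Shisa6 and Tspan8 encode membrane proteins. SHISA6 is a single-pass protein reported as an inhibitor of Wnt signalling in stem spermatogonia, and TSPAN8 is a tetraspanin used to sort spermatogonia rich in stem cells. Shisa6 was at 3.85 RPKM in control (counting interval 3.42 to 4.31) and at 3.43 RPKM in mutant (3.03 to 3.87), a ratio of 0.891 (0.752 to 1.05). Tspan8, on chromosome 10 from 115817284 to 115849893, was at 3.56 RPKM in control (3.08 to 4.11) and at 4.03 RPKM in mutant (3.51 to 4.59), a ratio of 1.13 (0.927 to 1.38). Both ratio intervals include 1, and a 2-fold decrease lies outside each of them. The estimated reads were 297 and 269 for Shisa6 and 191 and 218 for Tspan8.

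The span listed for Shisa6, from 65831282 to 66525964 on chromosome 11, is wider than its annotated gene, whose transcripts Shisa6-201 and Shisa6-202 begin at 66217472 and 66211725. It is shared with the entries of Dnah9 (0.335 and 0.299 RPKM) and Gm12296 (0.0763 and 0.115 RPKM), which have values of their own. Gm12296 shares no exonic base with Shisa6. The antisense gene 4930422I22Rik shares 4 exonic nt with Tspan8. No 50-nt window of Shisa6-202 or Tspan8-203 occurred in another gene's transcript.

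**Figure D2:**
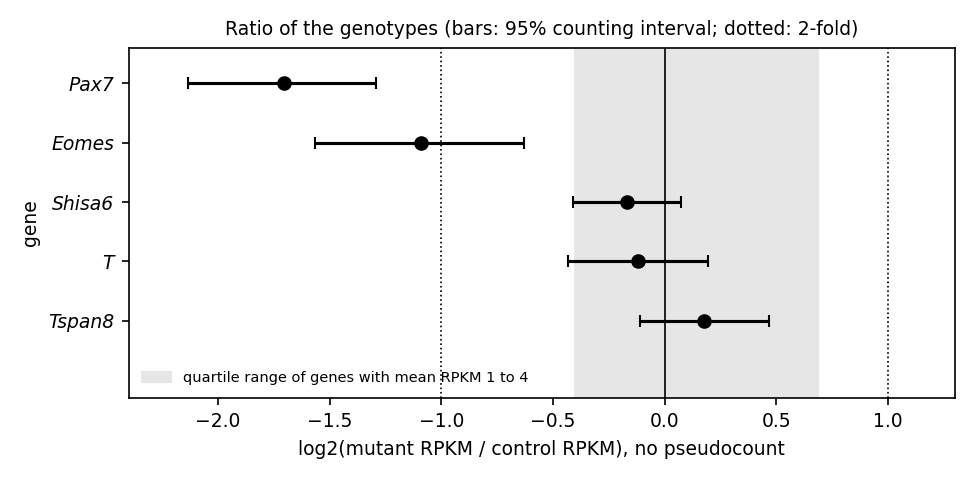
Log2 ratio of mutant to control RPKM without a pseudocount (horizontal axis) for the 5 genes with a value above 0 in both genotypes, with bars for the 95% counting interval and dotted lines at 2-fold. Pax7 (-1.71) and Eomes (-1.09) lie left of the grey band, which spans the quartiles of 4308 genes of like level, -0.40 to 0.69; the intervals of Shisa6, T and Tspan8 include 0.

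The order of the levels differed between the genotypes. In control it was Shisa6, Tspan8, Pax7, T, Eomes and Pdx1, and the counting intervals of the neighbours Shisa6 and Tspan8, and of T and Eomes, overlapped. In mutant it was Tspan8, Shisa6, T, Pax7, Eomes and Pdx1, and the intervals of Tspan8 and Shisa6, and of Pax7 and Eomes, overlapped. Pax7 was above T in control (2.08 to 2.75 against 1.48 to 1.99 RPKM) and below T in mutant (0.568 to 0.941 against 1.36 to 1.85 RPKM). Summed over the 6 genes, control had 13.1 RPKM and mutant 10.5 RPKM, of which Shisa6 and Tspan8 are the greater part. The percentile of Pax7 among all entries above 0 was 53.6 in control and 39.0 in mutant. That of Eomes was 48.6 and 38.4, and that of T 50.1 and 48.7.

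For a comparison with all genes, differences were taken as log2((mutant RPKM + 1) / (control RPKM + 1)), which understates the difference of genes as low as these. Of the 6 genes, 5 reached 1 RPKM in at least 1 genotype, and Pax7 and Eomes passed this filter through their control values alone. On this scale 0 of the 6 genes were past 2-fold in either direction. Of 16473 genes compared, 716 (4.35%) were at least 2-fold lower in mutant and 724 (4.4%) at least 2-fold higher. Pax7 lay just short of the threshold at -0.97, Eomes at -0.55, Shisa6 at -0.13, T at -0.07 and Tspan8 at 0.14. By the plain ratio of RPKM values, Pax7 and Eomes were past 2-fold lower, 2 of the 6 genes, where 7.19% of the 16473 genes were (6.68% of the 4414 genes with a mean of 1 to 4 RPKM) and 9.27% were 2-fold higher (15.2% in that band).

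The scale of the comparison bears on every one of these values. The median gene differed by 0.005, with quartiles at -0.35 and 0.33. In the germ cell rescaling, 0.66 was subtracted from every log2 difference so that 12 germ cell genes had a median of 0. Pax7 was then at -1.63, Eomes at -1.21, Shisa6 at -0.79 and T at -0.73, and Tspan8 turned from 0.14 to -0.52. The shift was taken after the pseudocount, so it moves genes of low RPKM further than rescaled RPKM values would. Counts past 2-fold depend on that step. The shifted differences put 4149 genes past 2-fold lower and 351 past 2-fold higher, against 716 and 724 as deposited. Pax7 and Eomes were the lowest of the 5 on both scales, an order that a common shift cannot change.

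**Figure D3:**
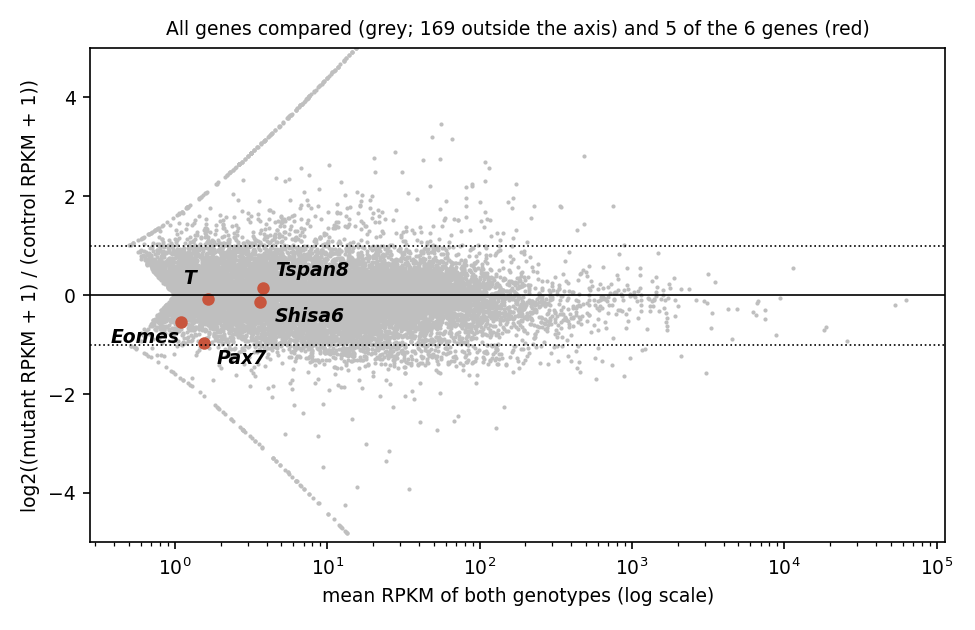
Log2 difference on the RPKM + 1 scale (vertical axis, dotted lines at 2-fold) against the mean RPKM of both genotypes (horizontal axis, log scale) for 16473 genes in grey, of which 169 lie outside the axis, and 5 of the 6 genes in red. Pax7 (-0.97) and Eomes (-0.55) lie below the other 3, which sit between -0.13 and 0.14.

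Other stem spermatogonial genes were split, as the 6 genes were. Counts past 2-fold in this and the following lists refer to the RPKM + 1 scale. Of 22 listed, 21 reached 1 RPKM; 2 were at least 2-fold lower (beside 4.35% of all genes), none was 2-fold higher, 13 lay below 0 and 8 above, and the median was -0.34. The lower ones were Gfra1, the GDNF co-receptor, at 35.9 and 14.2 RPKM, and Cd82, a tetraspanin, at 30.6 and 14.5 RPKM. Of the most abundant, the transcription factor gene Etv5 was at 58.6 and 36.9 RPKM, Dusp6, a phosphatase that restrains ERK signalling, at 115 and 63.3 RPKM, the adhesion gene Mcam at 134 and 101 RPKM, and Sdc4, a syndecan, at 200 and 275 RPKM. Gfra1 was 2.53-fold lower in plain ratio, between Eomes (2.13) and Pax7 (3.26). The GDNF-induced transcription factor gene Bcl6b (21.3 and 10.2 RPKM) and Etv4 (47.2 and 24.1 RPKM) lay within 0.1 of the lower threshold. So did the endothelial and stem cell gene Plvap (3.04 and 1.04 RPKM), and these 3 were picked after their values were seen. Besides Sdc4, the 8 genes above 0 included Bmi1 (36.5 and 58.7 RPKM), Nanos2 (3.37 and 5.35 RPKM) and Id4 (18.5 and 26.7 RPKM). Also above 0 were Pou3f1 (4.51 and 6.61 RPKM), Ret (30.9 and 39.6 RPKM), Tcl1 (36.7 and 40.5 RPKM) and Erbb3 (8.69 and 8.92 RPKM).

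Progenitor genes mostly had higher mutant values. Of 8, 5 were at least 2-fold higher in mutant (beside 4.4% of all genes) and none was 2-fold lower, with a median of 1.18. Nanos3 (21.7 and 29.6 RPKM) and Ddit4 (12.2 and 18.0 RPKM) lay above 0 but short of 2-fold, and Lin28a (30.9 and 26.1 RPKM) lay below 0. Neurog3, a transcription factor of progenitors, was at 1.40 and 6.94 RPKM, Sox3 at 3.47 and 11.3 RPKM, the retinoic acid receptor gene Rarg at 5.22 and 13.8 RPKM, the uridine phosphorylase gene Upp1 at 7.07 and 20.8 RPKM, and Zbtb16, which encodes PLZF, at 24.4 and 53.7 RPKM. The levels of Neurog3 and Eomes were alike in control (1.40 and 1.50 RPKM) and far apart in mutant (6.94 and 0.705 RPKM). After rescaling to the germ cell genes 1 of the 5 remained past 2-fold, and the median was 0.52. Of 9 genes of differentiation onset, 6 lay above 0 and 3 below. The 3 were Stra8 (45.2 and 8.60 RPKM), the receptor gene Kit (27.3 and 9.65 RPKM) and the cyclin gene Ccnd2 (247 and 102 RPKM). All 3 were 2-fold lower (beside 4.35% of all genes), and none of the 9 was 2-fold higher. Sohlh1 (37.2 and 60.6 RPKM), Sohlh2 (30.8 and 50.5 RPKM) and Sycp3 (41.9 and 59.5 RPKM) were among those above 0. The median of the 9 was 0.28, which the germ cell rescaling turned to -0.38. The 12 germ cell genes had a median of 0.66, none past 2-fold, with Ddx4 at 88.6 and 114 RPKM and Dazl at 274 and 353 RPKM. They summed to 945.5 and 1382 RPKM, beside 3868 and 1374 RPKM for 9 macrophage genes. Germ cell RNA was thus abundant in both values, and so was RNA of other cells.

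**Figure D4:**
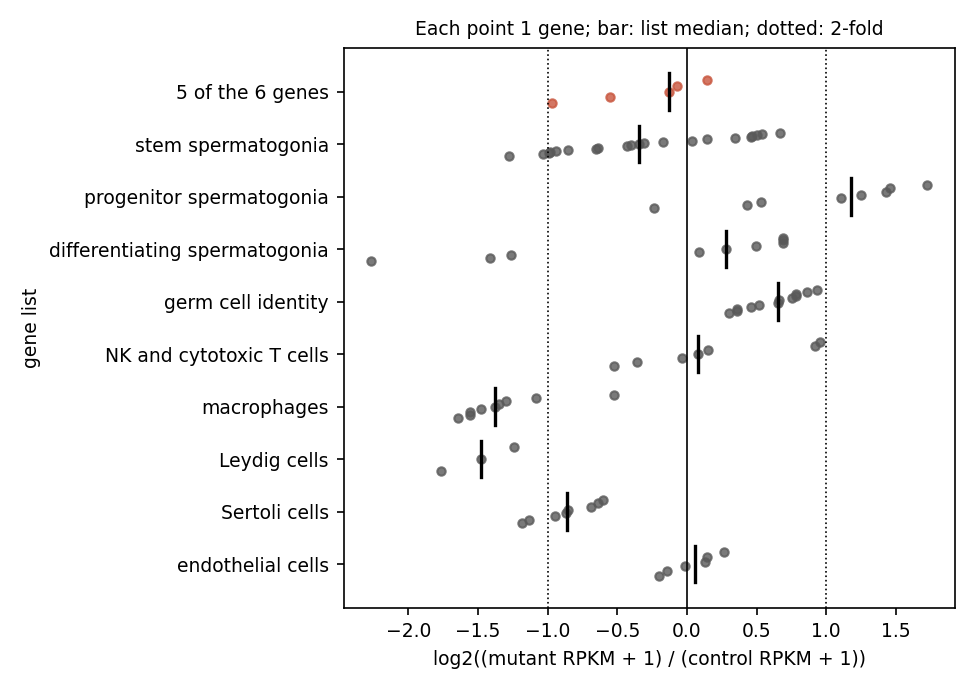
Log2 difference on the RPKM + 1 scale (horizontal axis, dotted lines at 2-fold) of each gene with an RPKM of 1 or more, by list (vertical axis), with black bars for list medians. The 5 red points run from -0.97 to 0.14; stem genes have a median of -0.34, progenitor genes 1.18, macrophage genes -1.38 and Leydig cell genes -1.48.

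Relatives of the 6 genes were read to see which members of each family were present. Of 17 T-box genes 7 reached 1 RPKM and none was past 2-fold, with a median of -0.07. Mga, a broadly expressed T-box repressor, was by far the most abundant at 71.0 and 101 RPKM, followed by Tbx2 at 4.72 and 3.42 RPKM. By the mean of both values T came next, followed by Tbx6 (1.34 and 1.35 RPKM) and Eomes. Among 9 Pax genes, Pax5 (0.712 and 1.13 RPKM), Pax7 and Pax8 (2.89 and 4.40 RPKM) reached 1 RPKM, and Pax7 was the 1 below 0 as deposited; all 3 were below 0 after the germ cell rescaling. Of 7 Shisa genes found, 5 reached 1 RPKM, with a median of -0.34 and none past 2-fold; Shisa5 was at 73.5 and 37.9 RPKM, Shisa2 at 3.39 and 3.85 RPKM and Shisa4 at 2.33 and 1.63 RPKM. Of 29 tetraspanins 25 reached 1 RPKM, 21 of them below 0, with a median of -0.45. The 4 past 2-fold lower were Cd63 (113 and 41.6 RPKM), the leukocyte gene Cd53 (88.9 and 39.8 RPKM), Cd82 and Tspan4 (38.2 and 18.6 RPKM). Tspan8 was 1 of 4 tetraspanins above 0 as deposited, and all 25 were below 0 after the germ cell rescaling.

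Several of the 6 genes also mark other cell types, whose markers were read beside them. For muscle satellite cells, which carry Pax7, the defining factors were at or near 0: Myf5 was at 0 in both genotypes and Myod1 at 0.0210 and 0.0109 RPKM. The 7 genes found of that list summed to 11.2 and 6.75 RPKM, mostly Chrna1 (7.90 and 4.34 RPKM) and Des (2.54 and 1.91 RPKM). Natural killer and cytotoxic T cell genes, listed because such cells can carry Eomes, were present and split in direction. Their 9 genes summed to 43.6 and 51.2 RPKM, with none at 0. Of the 7 that reached 1 RPKM, 4 lay above 0 and 3 below on the RPKM + 1 scale, none past 2-fold there, with a median of 0.08 that the germ cell rescaling turned to -0.58, with 2 above 0. The receptor genes Ncr1 (4.84 and 3.06 RPKM) and Klrb1c (4.39 and 3.19 RPKM) were lower in mutant. In plain ratio they were 1.58-fold and 1.37-fold lower, beside 2.13-fold for Eomes. The granzyme genes Gzma (6.63 and 13.8 RPKM) and Gzmb (0.909 and 2.62 RPKM) were higher, by 2.08-fold and 2.88-fold in plain ratio. Il2rb was at 11.2 and 12.6 RPKM, Nkg7 at 7.42 and 7.89 RPKM and Klrd1 at 7.34 and 7.14 RPKM. Ncr1, Klrb1c and Gzmb were picked after their values were seen. The part of these cells in the Eomes values was not tested.

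Primitive streak genes, listed because T and Eomes act there, summed to 5.38 and 4.65 RPKM over 7 genes; Msgn1 was at 0 in both genotypes, Gsc at 1.17 and 0.328 RPKM and Wnt3 at 2.47 and 2.64 RPKM. Of 6 pancreatic endocrine genes none reached 1 RPKM and Ins1 was at 0 in both. The 7 duct epithelium genes, listed because such cells can carry Tspan8, summed to 7.95 and 12.2 RPKM with none at 0; Pax8, Cldn3 (1.32 and 2.81 RPKM), Cldn7 (1.05 and 2.21 RPKM) and Krt19 (1.34 and 1.78 RPKM) reached 1 RPKM, with a median of 0.56 as deposited and -0.10 after the germ cell rescaling. The part of such cells in the Tspan8 values was not tested.

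Markers of most testicular somatic cells were lower in mutant, in the same values in which Pax7 and Eomes were. Macrophage genes summed to 3868 and 1374 RPKM over 9 genes, 8 of them past 2-fold lower, with a median of -1.38 and Lyz2 at 1339 and 428 RPKM. Leydig cell genes summed to 451 and 153 RPKM over 3 genes, all past 2-fold lower, with a median of -1.48. Sertoli cell genes summed to 350.0 and 165 RPKM over 8 genes, with a median of -0.86, and Clu and Amhr2 were past 2-fold lower. Peritubular myoid genes (5, summed 85.4 and 36.1 RPKM, median -0.73) and interstitial fibroblast genes (4, summed 130 and 72.6 RPKM, median -0.65) had Acta2 and Igf1 past 2-fold lower. Endothelial genes summed to 24.9 and 24.2 RPKM over 6 genes, with a median of 0.06 that became -0.60 after the germ cell rescaling and -0.07 with quantile normalization. None of the genes found in these 5 lists and the endothelial list was at 0 in either genotype. The part of somatic cells in the Pax7 and Eomes values was not tested.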

How the data were processed

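RNA of THY1+ spermatogonia was sequenced in 4 libraries, 2 per genotype. The submitters' processing notes name TopHat2 2.0.11 and GRCm38. Not given in the sources used here are the counting program, the annotation and how libraries were combined. The deposited values are RPKM, per the file headers, with 1 column per genotype for both of its libraries. Starts count from 0 in the table, and 1 was added. Of the 43998 entries, 981 with several symbols were left out, and the entry with the highest mean stood for a repeated symbol. Genes with 1 RPKM or more in either genotype were compared on log2(RPKM + 1), with 2-fold as the threshold. The planned linear model needs values per library and was not run.

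Depth was read from 3357 genes with 1 GENCODE M21 transcript of at least 1000 nt whose ends match the table. RPKM times length, less an offset of 200 nt (control) or 210 nt (mutant), was divided by a fitted step of 17.85 or 17.45. Values of up to 10 reads fell within 0.1 of a whole read for 90.5% of 884 genes in control and 95.3% of 900 in mutant. Intervals at 95% were exact Poisson for reads and exact binomial (Clopper-Pearson) for ratios. The procedure was tested on simulated data, but no result of that test is given here, so it adds no support to the values. Python 3.11.15, numpy 2.4.6, pandas 2.3.3, scipy 1.17.1 and matplotlib 3.10.9 were used. Sequences came from GENCODE M21 transcripts and, for 5 of the 6 genes, a RefSeq promoter table on GRCm38.p6.

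The 6 genes and the 20 other lists were chosen with earlier results of these data known. Genes named from the lists were mostly those past 2-fold and up to 4 of the most abundant. Not all such genes are named, and some others are. No genes of like pattern were named, since 2 values per gene give only 1 ratio. Alternatives were other pseudocounts, filters, rescalings and a read estimate without the offset.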

Additional observations from a re-analysis of the deposited data

How the results depend on the processing

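No paired analysis was possible because the columns combine both libraries of a genotype, and no library could be left out for the same reason. The number of the 6 genes past 2-fold lower, 0 with a pseudocount of 1, was 1 under quantile normalization and at the pseudocounts 0.1 and 0.5, and 2 after rescaling to the germ cell genes and, chosen after seeing the data, with the plain ratio. Of 30 alternative values for 5 of these genes 29 kept their sign, and Tspan8 turned to -0.52 after the germ cell rescaling. Another pseudocount or the plain ratio cannot alter a sign, and the downward shifts of the 2 rescalings to a median of 0 can alter only a positive one. Quantile normalization can alter either sign, and it kept that of each of the 5 genes, with Tspan8 at 0.066. Most of the 29 could not have changed, so their number is no measure of stability. With a pseudocount of 0.1, 1417 of all genes were 2-fold higher and 1107 lower, against 351 and 4149 after the germ cell rescaling. Stem genes 2-fold lower were 4 with a pseudocount of 0.1 and 11 after that rescaling, which left 1 progenitor gene 2-fold higher. Among the relatives of the 6 genes 4 were 2-fold lower, or 8 with a pseudocount of 0.1, when 1 was higher, and 20 after the germ cell rescaling. Without the length offset, read estimates were 341 and 310 for Shisa6 and 231 and 267 for Tspan8. Depth limits Pdx1, at 4 and 0 reads.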
